A study of Rattus norvegicus with 10 samples.

Results

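The interleukin 1 and interleukin 6 (IL-1 and IL-6) cytokine families were examined in nucleus pulposus cells of the rat, which fill the soft centre of the intervertebral disc, through 10 genes: the ligands Il6, Lif, Il11, Il1b and Il33, the IL-1 receptor antagonist Il1rn, the receptor chains Il1r1, Il6st and Osmr, and the feedback inhibitor Socs3. They were chosen by gene symbol, as the probesets that the platform annotation gives to these genes. 9 of the 10 were measured, of 15037 named genes on the array. Il1r1, the signalling receptor for IL-1, was not analysed here.

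The measurements came from 10 arrays of total RNA. Of these, 5 held cells that received a lentivirus with a short hairpin RNA against Bnip3 (ShBNIP3, arrays 6 to 10), and 5 held cells that received a control hairpin (ShCtrl, arrays 1 to 5), for which the labels name the vector pLKO.1. Both groups carried lentivirus, both were male Sprague Dawley rat cells (animals of 300 g, aged 3 to 4 months), and RNA was taken 4 days after transduction. Bnip3 encodes an outer mitochondrial membrane protein that recruits the autophagy machinery to mitochondria. No label says how many hairpins or animals were used or whether arrays of a group were separate cultures, so the p-values reflect the spread among these arrays alone, and it may be technical. The extraction text also mentions mouse disc tissue, which does not match the organism given for these samples.

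IL-6 family cytokines bind a ligand-specific receptor chain and signal through the shared chain gp130, encoded by Il6st, which activates JAK kinases and the transcription factor STAT3. STAT3 induces Socs3, whose product binds gp130 and dampens the signal. IL-1 and IL-33 act through receptors that recruit MyD88, IRAK kinases and TRAF6 and activate NF-kB, and IL-1 signalling is a known inducer of Il6, of chemokines and of matrix-degrading enzymes in disc cells.

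Levels are log2 expression values, 1 per gene and array, and differences are ShBNIP3 minus ShCtrl on that scale. They were tested with limma across 23188 probesets, p-values were adjusted by Benjamini-Hochberg over all of them, and "rose" and "fell" are used for an adjusted p under 0.05. Every adjusted p below for a single gene is from limma. A level counts as background when it lies under the 95th percentile of the 23 antigenomic probesets of its own array, which have no target in the genome; that limit was between 6.50 and 6.78. The hairpin's target was lower in every ShBNIP3 array: Bnip3 was at 11.14, 11.26, 10.59, 11.31 and 12.68 in ShBNIP3 cells, against 14.29, 14.29, 13.94, 15.97 and 14.54 in ShCtrl cells. It fell by 3.21 (SE 0.40, adjusted p = 0.00020).

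ShBNIP3 array 10 and ShCtrl array 4 stood apart from the other arrays of their groups. Their mean correlation with the other arrays of their group, over all probesets tested, was 0.986 for ShBNIP3 array 10 and 0.983 for ShCtrl array 4, and 0.992 for each of the other 8 arrays. Both also held the highest level of Il6, Il11 and Socs3 in their group, so each member's difference is given with all arrays and without both. For other genes the value without both is given where a call made with all arrays is lost there. Of the nucleus pulposus markers, 13 were measured and 7 were at background on all 10 arrays, among them the keratins Krt8, Krt18 and Krt19, the notochord factor Tbxt and Shh. Acan and Col2a1, which encode the main proteoglycan and collagen of the tissue, were above background. In bulk RNA, fewer cells of a type and less RNA per cell cannot be told apart.

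Sequence around the annotated gene start is shown for 4 members. Il6 and Il11 are ligands that, like Lif, were highest in their groups on ShBNIP3 array 10 and ShCtrl array 4. Osmr is the member that fell, and Socs3 is the feedback gene of the pathway. Each sequence is the RefSeq window of GRCr8 from 250 bases before to 50 bases after the annotated start of the gene. That start need not be where transcription begins. The Socs3 window ends with an ATG and coding sequence, so it may lie past the promoter. It is written 5′ to 3′ on the gene's strand. Capitals mark motif matches on either strand, with positions counted from the annotated start. Motifs searched were the NF-kB consensus (kappa-B), AP-1 (TGANTCA), C/EBP (TTGCNNAA), STAT (TTCNNNGAA) and the TATA box (TATAAA). No 2 matches overlapped in these windows.

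Il6, chr4:5894526-5894825, minus strand, with a C/EBP match from -152 read on the opposite strand and a kappa-B match from -68:
Il6: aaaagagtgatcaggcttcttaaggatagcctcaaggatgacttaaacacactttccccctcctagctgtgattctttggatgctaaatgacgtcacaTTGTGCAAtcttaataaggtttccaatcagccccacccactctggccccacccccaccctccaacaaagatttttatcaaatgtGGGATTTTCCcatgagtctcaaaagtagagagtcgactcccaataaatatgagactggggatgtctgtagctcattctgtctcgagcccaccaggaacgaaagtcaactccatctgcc
Il11, chr1:78098372-78098671, plus strand, with an AP-1 match from -142:
Il11: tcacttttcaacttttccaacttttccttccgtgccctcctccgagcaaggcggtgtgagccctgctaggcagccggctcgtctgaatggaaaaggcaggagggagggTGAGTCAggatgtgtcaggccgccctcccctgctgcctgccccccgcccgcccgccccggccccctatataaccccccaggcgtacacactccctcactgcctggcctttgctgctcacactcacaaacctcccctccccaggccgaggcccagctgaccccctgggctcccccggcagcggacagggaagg
Socs3, chr10:103694719-103695018, minus strand, with a kappa-B match from -161 read on the opposite strand:
Socs3: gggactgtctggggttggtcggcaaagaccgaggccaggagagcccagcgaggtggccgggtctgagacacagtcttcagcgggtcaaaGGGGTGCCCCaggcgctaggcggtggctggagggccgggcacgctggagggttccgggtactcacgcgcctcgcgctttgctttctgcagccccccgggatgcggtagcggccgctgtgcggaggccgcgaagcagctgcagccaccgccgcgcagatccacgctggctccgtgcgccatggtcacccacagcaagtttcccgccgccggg
Osmr, chr2:57688512-57688811, minus strand, with an AP-1 match from -33:
Osmr: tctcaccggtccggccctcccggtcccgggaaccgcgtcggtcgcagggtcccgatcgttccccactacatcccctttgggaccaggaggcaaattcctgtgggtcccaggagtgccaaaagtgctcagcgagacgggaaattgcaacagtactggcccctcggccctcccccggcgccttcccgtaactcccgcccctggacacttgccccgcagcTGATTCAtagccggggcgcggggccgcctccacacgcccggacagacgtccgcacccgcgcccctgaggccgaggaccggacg

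Of the measured members, 8 had such a window. The kappa-B consensus was in 2 of them (Il6 and Socs3) and in 4.18% of all 33465 such windows. AP-1 was in 2 (Il11 and Osmr) against 7.33% of all windows, C/EBP in 3 (Il1b, Il33 and Il6) against 10.6%, and the TATA letters in 3 (Il1b, Il1rn and Il33) against 14.2%. The STAT letters were in 0 of the 8 and in 8.87% of all windows. Lif was not matched to a window. These matches describe the letters of these windows and say nothing of binding. The windows of Socs3 and Il6st reach into coding sequence, so a match or its absence there may not be that of the promoter.

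Among the 9 measured members, Lif and Il33 rose and Osmr fell, with Il33 at background on all 10 arrays. Read against the background, 33.3% of the members passed the threshold, and 15.5% of all probesets did (7.61% rose and 7.87% fell). No member had groups that did not overlap, while 12.9% of all probesets had such groups. The members' median difference was 0.75, beside 0.03 for all named genes, and is the value of Il33, a gene at background. With ShBNIP3 array 10 and ShCtrl array 4 left out, Il6, Lif, Il11, Il33 and Socs3 rose and Osmr fell, where 19.9% of all probesets passed (9.84% rose and 10.1% fell). In that comparison of 4 against 4 arrays the groups did not overlap for 5 members (Il6, Lif, Il11, Il6st and Osmr), against 23.6% of all probesets. The members' median difference was then 0.62, beside 0.04 for all named genes, and is again the value of Il33.

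**Figure D1:**
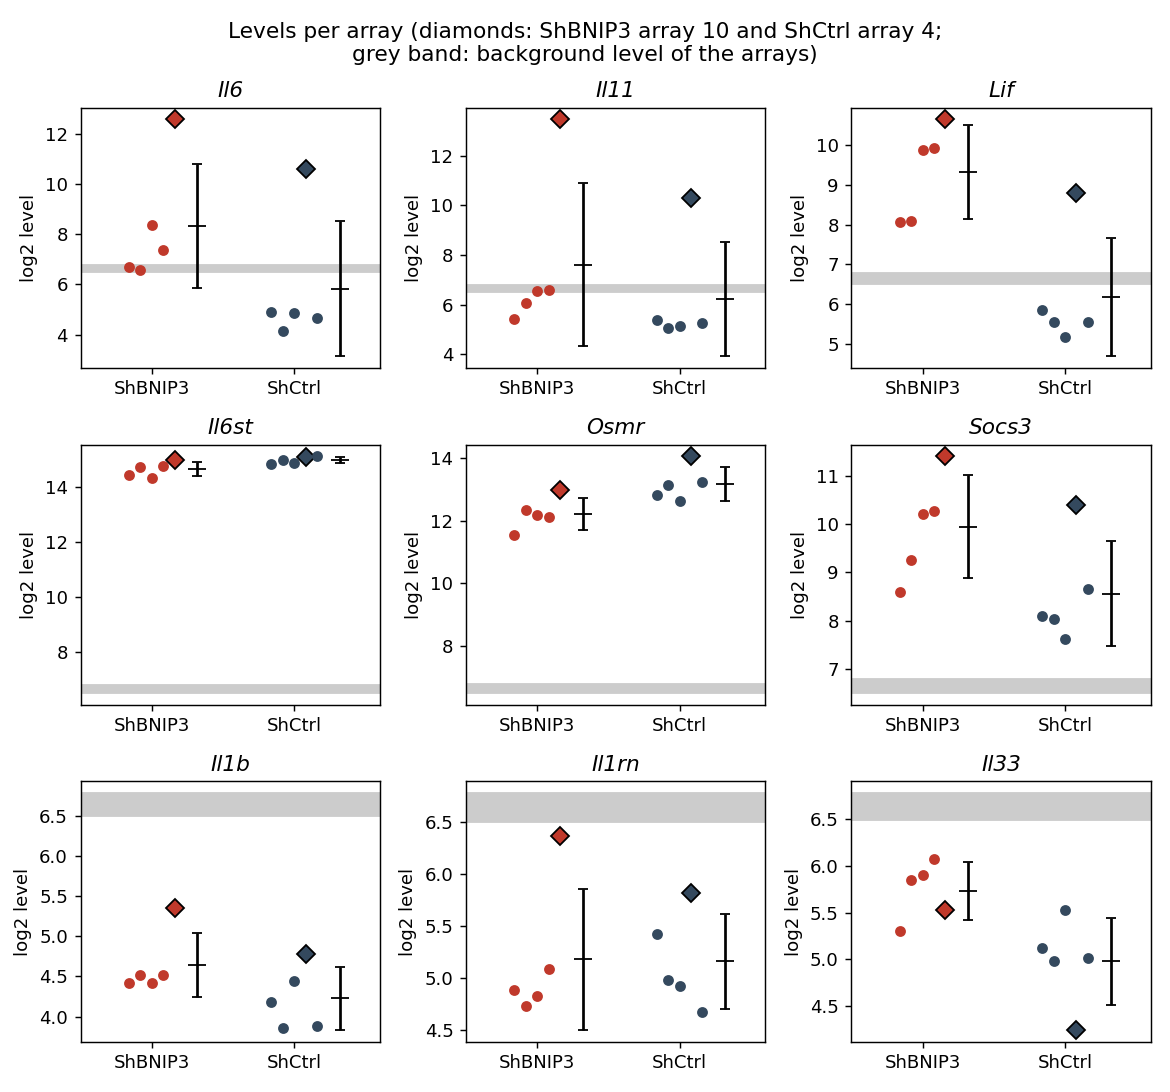
Level of each measured member on each array (log2, vertical axis), with ShBNIP3 arrays on the left and ShCtrl arrays on the right of each panel; the horizontal tick and bar beside each group are its mean and SD (n = 5), the grey band is the range of the background limit (6.50 to 6.78), and diamonds are ShBNIP3 array 10 and ShCtrl array 4. The diamonds are the highest of their group for Il6, Il11, Lif and Socs3, all ShBNIP3 points of Lif lie above the band, and every point of Il1b, Il1rn and Il33 lies below it.

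Lif, which encodes leukaemia inhibitory factor, an IL-6 family ligand that signals through gp130 and the LIF receptor, was the IL-6 family ligand that rose. It was at 8.06, 8.09, 9.89, 9.93 and 10.66 in ShBNIP3 cells, against 5.85, 5.53, 5.16, 8.81 and 5.54 in ShCtrl cells. All 5 ShBNIP3 arrays were above background and 1 of the 5 ShCtrl arrays, array 4, was, and that array was the only one that overlapped with the ShBNIP3 range. Lif averaged 9.33 ± 1.18 in ShBNIP3 cells and 6.18 ± 1.49 in ShCtrl cells (SD, n = 5 each). It rose by 3.15 (SE 0.68, 95% interval 1.67 to 4.62, adjusted p = 0.0072). Lif rose in each of the 10 fits that left out 1 array, by 2.81 to 3.80. Without both arrays it rose by 3.47 (SE 0.40, adjusted p = 9.11e-05), and ShBNIP3 cells were at least 5.12-fold above the background limit of the 4 ShCtrl arrays, none of which measured it. Such an "at least" fold sets the ShBNIP3 mean against the background limit of the ShCtrl arrays.

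Il6, the ligand that names the family and a known catabolic cytokine of the disc, was above background on more ShBNIP3 than ShCtrl arrays, but its difference did not pass the test. It was at 6.69, 6.58, 8.37, 7.38 and 12.56 in ShBNIP3 cells, against 4.91, 4.13, 4.86, 10.59 and 4.66 in ShCtrl cells. It was above background on 4 of 5 ShBNIP3 arrays and on 1 of 5 ShCtrl arrays, and ShCtrl array 4 lay above every ShBNIP3 array but array 10. Il6 averaged 8.32 ± 2.48 in ShBNIP3 cells and 5.83 ± 2.68 in ShCtrl cells (SD, n = 5 each), a difference of 2.49 (SE 1.30, 95% interval -0.33 to 5.30, adjusted p = 0.251). The difference was 3.68 without ShCtrl array 4, where it passed the test (adjusted p = 0.0197; with array weights 2.75, adjusted p = 0.0432), and 1.42 without ShBNIP3 array 10. Without both arrays Il6 rose by 2.61 (SE 0.34, adjusted p = 0.00019) and the groups did not overlap. The 4 remaining ShCtrl arrays were at background, so the fold was at least 1.54.

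Il11, a gp130 ligand with a receptor of its own, Il11ra1, was above background on ShBNIP3 array 10 and ShCtrl array 4 alone. It was at 5.44, 6.06, 6.53, 6.59 and 13.47 in ShBNIP3 cells, against 5.38, 5.05, 5.13, 10.31 and 5.25 in ShCtrl cells. The difference was 1.39 (SE 1.43, 95% interval -1.70 to 4.49, adjusted p = 0.612), with groups that overlapped. It was -0.068 without ShBNIP3 array 10 and 2.42 without ShCtrl array 4. Without both arrays it was 0.95 (SE 0.22, adjusted p = 0.0099), but all 8 arrays were then at background and no fold is given.

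Osmr was the member that fell. Its product is the receptor chain that pairs with gp130 to bind oncostatin M. Osmr was at 11.54, 12.33, 12.17, 12.11 and 12.98 in ShBNIP3 cells, against 12.82, 13.14, 12.64, 14.06 and 13.25 in ShCtrl cells. Only ShBNIP3 array 10 reached into the ShCtrl range. Osmr averaged 12.2 ± 0.52 in ShBNIP3 cells and 13.2 ± 0.55 in ShCtrl cells (SD, n = 5 each). It fell by 0.96 (SE 0.28, 95% interval -1.57 to -0.34, adjusted p = 0.037), and ShBNIP3 cells were 1.94-fold lower. This call rests on single arrays: it was lost when ShCtrl array 2, 4 or 5 or ShBNIP3 array 6, 7, 8 or 9 was left out (adjusted p 0.0545 to 0.0864), although the difference stayed between -1.14 and -0.74 in all 10 such fits. Without both outlying arrays it fell by 0.93 (adjusted p = 0.0046) and the groups did not overlap.

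Il6st, the gp130 chain shared by all these ligands, was at 14.41, 14.72, 14.33, 14.75 and 14.97 in ShBNIP3 cells, against 14.83, 14.98, 14.87, 15.08 and 15.10 in ShCtrl cells. It lay well above background on all 10 arrays. The difference was -0.34 (SE 0.14, 95% interval -0.64 to -0.04, adjusted p = 0.133) and did not pass the test, with ShBNIP3 array 10 inside the ShCtrl range. Without both arrays it was -0.40 (adjusted p = 0.0647), with groups that did not overlap.

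Socs3, the STAT3-induced inhibitor of gp130 signalling, was at 8.60, 9.25, 10.22, 10.28 and 11.41 in ShBNIP3 cells, against 8.09, 8.03, 7.61, 10.40 and 8.65 in ShCtrl cells. It averaged 9.95 ± 1.07 in ShBNIP3 cells and 8.56 ± 1.09 in ShCtrl cells (SD, n = 5 each). The difference was 1.40 (SE 0.55, 95% interval 0.20 to 2.59, adjusted p = 0.118) and did not pass. Without ShCtrl array 4 it was 1.86 and passed (adjusted p = 0.0127; with array weights 1.54, adjusted p = 0.0205). Without both arrays Socs3 rose by 1.49 (adjusted p = 0.0089), and the groups still overlapped, since ShBNIP3 array 6 lay just under ShCtrl array 5.

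The 3 measured IL-1 family members were at background on all 10 arrays. Il1b, which encodes the IL-1 form most studied in the disc, was at 4.42, 4.51, 4.42, 4.51 and 5.36 in ShBNIP3 cells, against 4.18, 3.85, 4.44, 4.77 and 3.88 in ShCtrl cells. Il1rn, whose product blocks the IL-1 receptor, was at 4.89, 4.73, 4.83, 5.09 and 6.37 in ShBNIP3 cells, against 5.43, 4.98, 4.93, 5.82 and 4.67 in ShCtrl cells. Every value of both genes lay under the background limit and the groups overlapped for both genes. The differences, 0.42 for Il1b (adjusted p = 0.251) and 0.02 for Il1rn (adjusted p = 0.985), therefore describe no measured level. Without both outlying arrays they were 0.38 for Il1b (adjusted p = 0.0940) and -0.12 for Il1rn (adjusted p = 0.699).

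Il33, an alarmin of the IL-1 family that is held in the nucleus and released by damaged cells, rose within the background range. It was at 5.31, 5.85, 5.90, 6.07 and 5.53 in ShBNIP3 cells, against 5.12, 4.99, 5.53, 4.25 and 5.01 in ShCtrl cells, so 4 ShCtrl arrays lay below every ShBNIP3 array and array 3 overlapped. The difference was 0.75 (SE 0.22, 95% interval 0.28 to 1.23, adjusted p = 0.0345), and no fold is given. The call was lost when ShCtrl array 1, 2 or 5 or ShBNIP3 array 7, 8 or 9 was left out (adjusted p 0.0544 to 0.0888). Without both outlying arrays it was 0.62 (adjusted p = 0.0316).

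**Figure D2:**
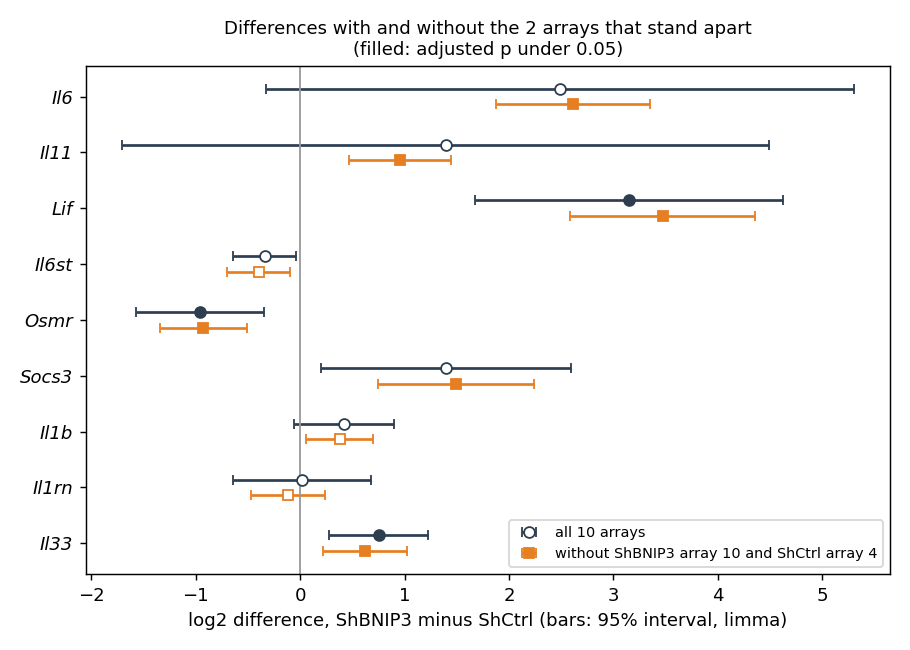
Difference of each member, ShBNIP3 minus ShCtrl (log2, horizontal axis), with its 95% interval from limma, over all 10 arrays (circles) and without ShBNIP3 array 10 and ShCtrl array 4 (squares); filled symbols have an adjusted p under 0.05. The intervals of Il6 and Il11 are narrower without both arrays (1.88 to 3.35 for Il6, against -0.33 to 5.30 with all 10). These arrays were picked partly by the levels of those genes. The intervals of Lif, Osmr, Socs3, Il6st and Il33 (at background) lie on 1 side of 0 both ways.

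Pairs of members were also compared within each array, which asks whether they changed by unequal amounts, with 3 pairs tested by an exact two-sided permutation test whose smallest p is 0.00794. Osmr minus Il6st averaged -2.41 ± 0.36 in ShBNIP3 cells and -1.79 ± 0.46 in ShCtrl cells (SD, n = 5 each; difference -0.62, exact permutation p = 0.0397, adjusted over the 3 pairs 0.107). Il6 minus Il11 averaged 0.70 ± 1.03 in ShBNIP3 cells and -0.39 ± 0.44 in ShCtrl cells (difference 1.09, exact permutation p = 0.0714, adjusted 0.107). Il6 minus Lif averaged -1.01 ± 1.70 in ShBNIP3 cells and -0.35 ± 1.25 in ShCtrl cells (difference -0.66, exact permutation p = 0.452, adjusted 0.452). None of the 3 passed after adjustment, so unequal changes within these pairs were not resolved. A 4th pair, Il1b and Il1rn, was at background and was not tested.

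On both outlying arrays 8 of the 9 members lay above their level on the rest of the group. Set against the median of the other 4 arrays of its group, ShBNIP3 array 10 was higher by 7.17 for Il11, 5.53 for Il6, 1.67 for Lif and 1.67 for Socs3. ShCtrl array 4 was higher by 5.12 for Il11, 5.84 for Il6, 3.27 for Lif and 2.34 for Socs3. Osmr was also high on both, by 0.83 on ShBNIP3 array 10 and 1.08 on ShCtrl array 4, against the direction of its difference between the groups, while Il33 was low on both, at -0.35 on ShBNIP3 array 10 and -0.82 on ShCtrl array 4. Bnip3 itself was also at its group's highest level on each of these arrays, 12.68 and 15.97. The part of what set these 2 arrays apart in the members' levels was not tested.

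**Figure D3:**
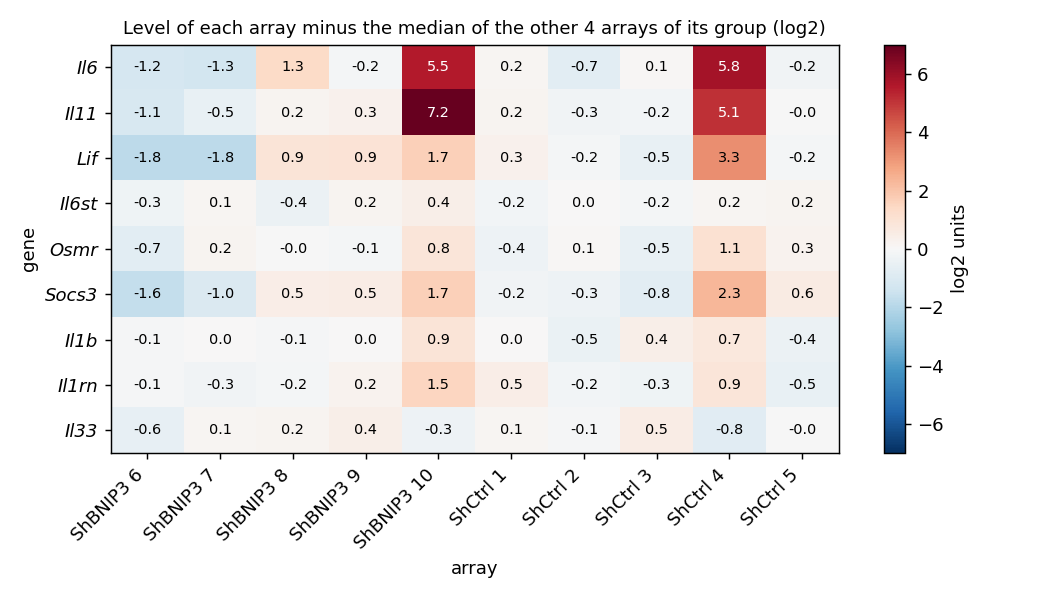
Level of each member on each array minus the median of the other 4 arrays of its group (log2 units, colour scale and printed values), with the ShBNIP3 arrays first and the ShCtrl arrays after them. ShBNIP3 array 10 and ShCtrl array 4 are high for Il6 (5.53 and 5.84) and Il11 (7.17 and 5.12), and Il33 is low on both.

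The genes whose deviations from their group means were most like those of Il6 over the 10 arrays were Dlc1, Cd44 and Adamts7, with Pearson r of 0.989, 0.989 and 0.988. Over the 8 arrays without the 2 that stood apart, r was 0.805 for Dlc1, 0.734 for Cd44 and 0.879 for Adamts7. None of these 3 genes passed the test between the groups (differences 0.19, 0.33 and 0.87). For Il33 they were Chac2, Cib1 and Tbl3, with r of 0.939, 0.933 and 0.928 over 10 arrays and 0.905, 0.949 and 0.866 over 8. These are descriptions over arrays that share their scaling, 2 of them outlying.

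The wider pathway was described through 13 lists, which hold 176 genes, 156 of them measured. Of those, 23 rose and 8 fell (19.9% called), beside 1334 and 1243 of the 15037 named genes (17.1%). Without both arrays 41 rose and 15 fell (35.9%), beside 1704 and 1634 of all named genes (22.2%), which also changed more often there. Leaving out 1 array gave 13 to 36 that rose: 36 without ShCtrl array 4, 13 without ShBNIP3 array 9, 14 without ShCtrl array 2 and 15 without ShCtrl array 1, ShCtrl array 5 or ShBNIP3 array 8. It gave 5 that fell without ShCtrl array 2 or 5. Over all probesets, 5.67% to 8.09% rose and 6.18% to 9.13% fell with 1 array left out. With all arrays, the share called was 14.3% for IL-6 family ligands, 16.7% for their receptors and 15.8% for STAT3 targets. It was 9.09% for IL-1 family ligands and antagonists, 25% for their receptors and 31.2% for IL-1 receptor signalling. It was 22.2% for IL-1 maturation and release and for mRNA stability, and 40% for receptor shedding. Genes that changed by under 2-fold are named here after their values were seen.

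Of the other IL-6 family ligands and receptors, none changed with all arrays, so Lif was the 1 gene of 7 measured ligands that rose and Osmr the 1 of 6 receptors that fell. Without both arrays 3 of the ligands rose and 2 of the receptors fell. Osm, the oncostatin M ligand, and Lifr were at background on all 10 arrays. Il11ra1 was at 9.00, 9.03, 8.88, 9.11 and 8.13 in ShBNIP3 cells, against 9.73, 9.66, 9.75, 8.34 and 9.73 in ShCtrl cells. Its difference was -0.61 (adjusted p = 0.182), and it fell by 0.71 without both arrays (adjusted p = 0.00080). Without ShCtrl array 4 alone Il11ra1 also fell (adjusted p = 0.0053) and Il6 rose. Both outlying arrays were the lowest of their group for Il11ra1 and the highest for its ligand Il11.

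Among 13 JAK and STAT components 0 rose and 2 fell, which was 15.4% of the list, near the 17.1% of all named genes. Stat6, the factor that acts downstream of the IL-4 receptor rather than gp130, was at 12.80, 12.95, 13.06, 13.06 and 12.80 in ShBNIP3 cells, against 13.91, 14.02, 14.09, 14.19 and 14.12 in ShCtrl cells. It fell by 1.13 (SE 0.11, adjusted p = 2.87e-05), with groups far apart. Stat5b, a mediator of growth hormone and other cytokines, fell by 0.71 (adjusted p = 0.0044). Stat3 itself, the main transducer of gp130, was at 14.34 to 14.91 in ShBNIP3 cells and 14.02 to 14.73 in ShCtrl cells and did not pass. Without ShCtrl array 4, or without both arrays, 4 fell, with Stat2 and Stat5a added.

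Of 12 feedback inhibitors, 0 passed with limma, 5 had an unadjusted p under 0.05, and without both arrays 3 rose (Socs3, Ptpn2 and Pias3) and Socs2 fell. Without ShCtrl array 4 alone 2 of them rose (Socs3 and Ptpn2) and Socs2 fell. Of 19 STAT3 targets, 2 rose and 1, Osmr, fell. Serpina3n, an acute-phase protease inhibitor, was at 12.74, 12.71, 14.80, 14.34 and 15.58 in ShBNIP3 cells, against 10.96, 10.67, 11.16, 12.50 and 11.69 in ShCtrl cells. It rose by 2.64 (SE 0.53, adjusted p = 0.0046) with groups that did not overlap. Timp1, an inhibitor of matrix metalloproteinases, rose by 0.51 (adjusted p = 0.011). The list's median difference was 0.31, and 6 rose without ShCtrl array 4, 4 without ShBNIP3 array 10 and 7 without both.

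On the IL-1 side, 10 of 11 ligands and antagonists were at background on all 10 arrays, among them Il1a, and Il33 was the 1 that rose. Without ShCtrl array 4 Il1a also rose, within the background range (adjusted p = 0.0225). Without both arrays 3 of these ligands rose, all within background (Il1a, Il18 and Il33). Of 8 receptors 2 rose, and 0 rose without both arrays, by limma. Il1rl1, the receptor for IL-33 (ST2), was at 9.87, 9.95, 11.90, 11.85 and 10.01 in ShBNIP3 cells, against 7.75, 7.97, 10.43, 7.94 and 9.79 in ShCtrl cells. It rose by 1.94 (SE 0.59, adjusted p = 0.041), 3.84-fold, with ShCtrl arrays 3 and 5 nearest to the ShBNIP3 range and array 3 inside it. The call was lost without ShCtrl array 1, 2 or 4 or ShBNIP3 array 8 or 9 (adjusted p 0.0727 to 0.106) and without both outlying arrays (1.91, adjusted p = 0.0529). It was also lost when limma's variance was fitted with a trend and robustly (adjusted p = 0.105). Il18r1, an IL-18 receptor chain that was above background on 1 array, rose by 0.57 (adjusted p = 0.0465), and this call was lost without any 1 of 8 arrays (ShCtrl 1, 2, 4 and 5 and ShBNIP3 6, 7, 8 and 9, adjusted p 0.0527 to 0.116) and without both outlying arrays (0.52, adjusted p = 0.0707).

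Of 16 genes of IL-1 receptor signalling 1 rose and 4 fell, and without both arrays 2 rose and 5 fell, with Ube2n (within background) and Myd88 added. Ube2v1, which helps build the ubiquitin chains made with TRAF6, was at 9.75, 9.68, 9.90, 9.92 and 9.67 in ShBNIP3 cells, against 11.86, 11.64, 11.76, 10.96 and 11.69 in ShCtrl cells. It fell by 1.80 (SE 0.16, adjusted p = 1.60e-05), 3.48-fold between the means, with groups that did not overlap. Tollip, an adaptor that restrains IL-1 receptor signalling, fell by 0.65 (adjusted p = 0.0079), Peli2, a ubiquitin ligase of the pathway that was at background in ShBNIP3 cells, by 0.75 (adjusted p = 0.0169) and Traf6 by 0.51 (adjusted p = 0.0472). The Traf6 call was lost without any 1 of 7 arrays (ShCtrl 1, 2, 4 and 5 and ShBNIP3 6, 8 and 9, adjusted p 0.0643 to 0.114). Ikbkb, a kinase that activates NF-kB, rose by 0.56 (adjusted p = 0.0223), and not without ShCtrl array 3 (adjusted p = 0.053).

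Among 9 genes of IL-1 maturation and release, Casp4, an inflammatory caspase, fell by 1.15 (SE 0.31, adjusted p = 0.0256). It was at 12.43, 12.11, 12.16, 12.46 and 10.64 in ShBNIP3 cells, against 13.37, 13.46, 12.95, 12.52 and 13.24 in ShCtrl cells, and the groups did not overlap. That call was lost without ShCtrl array 1, 2 or 5 (adjusted p 0.0587 to 0.0655). Casp1, the caspase that cleaves pro-IL-1β, rose by 0.76 within the background range (adjusted p = 0.0267). Its call was lost without ShCtrl array 2 or 5 or ShBNIP3 array 7, 9 or 10 (adjusted p 0.0526 to 0.0686), and also without both outlying arrays (0.59, adjusted p = 0.0723). Nlrp3, the sensor of an inflammasome, rose without ShCtrl array 4 or without ShBNIP3 array 6 (adjusted p 0.0115 to 0.0468) and without both outlying arrays (1.05, adjusted p = 0.0175), and not with all arrays (0.82, adjusted p = 0.113).

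The genes that IL-1 and NF-kB induce early held most of the rises: 12 of 22 rose (54.5%, beside 7.61% of all probesets) and 0 fell. Their median difference was 1.64. This list was chosen with earlier results of these data known, so the contrast with all probesets is a description and not a test. Of the 12, Vcam1 rose within the background range. Tnfaip6 and Birc3 were at background on all ShCtrl arrays, and above it on 1 (Tnfaip6) and 2 (Birc3) of 5 ShBNIP3 arrays. Ccl2, which encodes a monocyte-attracting chemokine, was at 17.43, 17.79, 18.28, 18.31 and 18.27 in ShBNIP3 cells, against 11.94, 11.74, 10.95, 15.92 and 11.37 in ShCtrl cells. It rose by 5.63 (SE 0.73, adjusted p = 0.00025), with no overlap. Lcn2, an iron-sequestering acute-phase protein, rose by 4.99 (SE 0.77, adjusted p = 0.00083), also with no overlap. Cxcl1, a neutrophil chemoattractant, rose by 4.22 (SE 1.32, adjusted p = 0.0476), and Nfkbia, the NF-kB inhibitor that NF-kB induces, by 2.26 (SE 0.69, adjusted p = 0.0443).

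ShCtrl array 4 was the highest ShCtrl array for 18 of these 22 genes and the lowest for 3 (Csf1, Nfkbie and Vcam1). Cxcl1 was at 10.85, 12.08, 13.85, 14.06 and 14.62 in ShBNIP3 cells, against 7.65, 7.92, 7.13, 14.83 and 6.85 in ShCtrl cells. The calls of Cxcl1 and Nfkbia were each lost when any 1 of 8 arrays was left out (ShCtrl 1, 2, 3 and 5 and ShBNIP3 7, 8, 9 and 10, adjusted p 0.0629 to 0.116). With a trended and robust variance both were lost too (adjusted p = 0.135 for Cxcl1 and 0.121 for Nfkbia). Of these early response genes 19 rose when ShCtrl array 4 was left out, 7 without ShCtrl array 1, 2 or 5 or ShBNIP3 array 8, and 6 without ShCtrl array 3 or ShBNIP3 array 9. Over all probesets, leaving out 1 array gave 1314 to 1875 that rose (1844 without ShCtrl array 4), beside 1765 with all arrays. Without both outlying arrays 19 of the 22 rose (86.4%, beside 9.84% of all probesets) and the median difference was 1.98.

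**Figure D4:**
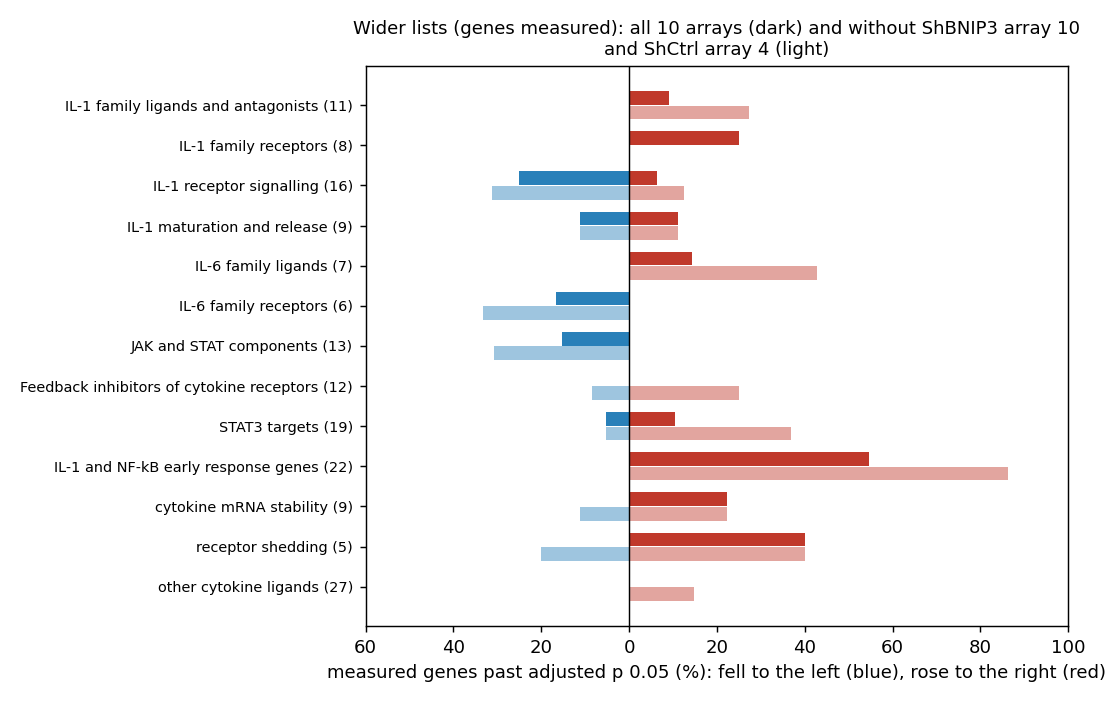
Share of the measured genes of each wider list with an adjusted p under 0.05 (percent, horizontal axis), with those that fell to the left of 0 and those that rose to the right, over all 10 arrays (dark) and without ShBNIP3 array 10 and ShCtrl array 4 (light). The number of genes measured stands in parentheses; 12 of 22 IL-1 and NF-kB early response genes rose with all arrays and 19 without both.

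In the list for cytokine mRNA stability, 2 of 9 measured genes rose and 0 fell. Tnip1, which was placed in that list but encodes no known regulator of mRNA stability, fell without both arrays (-0.58, adjusted p = 0.0336). Zc3h12a, which encodes a ribonuclease (Regnase-1) that degrades Il6 mRNA, was at 9.08, 9.45, 10.86, 10.86 and 10.32 in ShBNIP3 cells, against 7.75, 7.46, 7.49, 9.56 and 7.33 in ShCtrl cells. It rose by 2.20 (SE 0.45, adjusted p = 0.0051), with ShCtrl array 4 as the only overlap. Rc3h2, a roquin protein that binds the same kind of transcript, rose by 0.71 (adjusted p = 0.0012). Of 5 genes of receptor shedding 2 rose: Furin, a proprotein convertase, by 1.01 (SE 0.23, adjusted p = 0.0104) and Adam10, a sheddase, by 0.78 (adjusted p = 0.00082). Adam17, another sheddase, fell without both arrays (-0.69, adjusted p = 0.0052) and did not pass with all arrays (-0.63). Of 27 other cytokine ligands 23 were at background on all 10 arrays, and 0 passed with limma, where 6 had an unadjusted p under 0.05 and 4 rose without both arrays (Csf1, Csf3 and, within the background range, Tnf and Il23a).

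Markers of other cell types that the cultures could hold were measured on the same arrays. Of 17 macrophage and leukocyte markers 15 were at background on all 10 arrays, among them the pan-leukocyte marker Ptprc and the macrophage markers Csf1r, Adgre1 and Itgam. Cd68, a lysosomal protein of macrophages and other cells, above background on 4 of 5 ShCtrl arrays, rose 2.83-fold (adjusted p = 0.0018), Cd14, a lipopolysaccharide co-receptor, rose by 1.12 on the log2 scale (adjusted p = 0.0070), and Cd53 by 0.52 within background (adjusted p = 0.0146). The summed level of the list was 12.02 to 13.28 (log2) in ShBNIP3 cells, against 11.15 to 11.83 in ShCtrl cells. Most of that sum was Cd14 alone, at 11.73 to 13.14 in ShBNIP3 cells and 10.83 to 11.57 in ShCtrl cells. The sum therefore describes Cd14 rather than the list, whose median difference was 0.08. All 8 endothelial markers were at background. Of 9 annulus and fibroblast markers 8 were above background on some array, and Col1a1 averaged 18.1 in ShBNIP3 cells and 18.5 in ShCtrl cells. In that list 0 rose and 4 fell (Col1a1, Col1a2, Col3a1 and Thy1). The call of Col1a2 was lost without ShCtrl array 1, 2 or 3 or ShBNIP3 array 6, 8, 9 or 10 (adjusted p 0.0510 to 0.0797) and without both outlying arrays (adjusted p = 0.0552). Of the 13 nucleus pulposus markers 1 rose (Cdh2) and 3 fell (Basp1, Col2a1 and Ncam1). Acan differed by -0.90 and did not pass (adjusted p = 0.190), and it fell by 0.97 without both arrays (adjusted p = 0.0201). The part of Cd68, Cd14 and the matrix markers in the members' differences was not tested.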

How the data were processed

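Total RNA of 10 samples was hybridised to Affymetrix arrays after GeneChip WT Plus labelling, per the labels' protocols. Each probeset has 1 deposited log2 value per array, which the authors obtained with sst-rma normalization, as the labels state. The tool named in the submitters' processing notes is the Transcriptome Analysis Console, and its version is not given in the sources used here. Groups came from the sample titles, whose numbers serve as array numbers. Values were used as deposited; array medians lay between 6.18 and 6.22. The number of arrays limits the precision.

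Of 24834 probesets, 1646 control probesets were left out. Differences were fitted over the other 23188 with limma 3.58.1 (lmFit and eBayes, R 4.3.3), tested first on simulated data, and p-values were adjusted by Benjamini-Hochberg, with the threshold at 0.05. Symbols came from the platform annotation, checked against RefSeq by Entrez identifier (15049 of 15049 matched). A gene with several probesets is given by the one with the highest mean. A gene at background on every array of both groups gets no fold. Within-array pairs were tested with scipy 1.17.1.

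The members and gene lists were chosen with earlier results of these data known. Named genes are the members, Bnip3, up to 4 genes of each list past the threshold and 2-fold, and the 3 genes most like Il6 and Il33 across arrays; others were named after their values were seen. Alternatives were other array scalings, array weights, variance models, filters on dim probesets, stricter thresholds and arrays left out.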

Additional observations from a re-analysis of the deposited data

Results flagged for a closer look

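In groups of 5 arrays, an array was marked when its gap to the nearest other array was over 0.71 of the group's range, which chance gives for about 1 group in 20. Of 62 groups checked, 18 were marked, 7 of them on ShBNIP3 array 10, 11 on ShCtrl array 4 and 0 on any other array. The 6 genes named for their likeness to Il6 or Il33 were chosen by these same deviations and hold 5 of the marks. Without them 13 of 50 groups were marked, and many of these genes vary together, so the marks are not independent.

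On ShBNIP3 array 10, Il11 was at 13.47, above 5.44 to 6.59 on the other ShBNIP3 arrays. Il1b was at 5.36, above 4.42 to 4.51, and Il1rn was at 6.37, above 4.73 to 5.09, all within background. Casp4 was at 10.64, below 12.11 to 12.46. Dlc1 was at 12.70, above 9.80 to 10.31, and Cd44, a hyaluronan receptor, was at 16.75, above 15.12 to 15.40. Il6 minus Lif was 1.91 on that array, above -2.55 to -1.37.

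On ShCtrl array 4, all 3 gp130 ligands stood out: Il6 was at 10.59, above 4.13 to 4.91 on the other ShCtrl arrays, Lif at 8.81, above 5.16 to 5.85, and Il11 at 10.31, above 5.05 to 5.38. Of the genes that NF-kB induces, Ccl2 was at 15.92, above 10.95 to 11.94, Cxcl1 at 14.83, above 6.85 to 7.92, Nfkbia at 12.24, above 7.72 to 8.63, and Zc3h12a at 9.56, above 7.33 to 7.75. Ube2v1 was at 10.96, below 11.64 to 11.86. Dlc1 was at 12.46, above 9.67 to 10.10, Cd44 at 16.57, above 14.84 to 14.98, and Adamts7 at 9.72, above 5.66 to 6.37.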

How the results depend on the processing

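At an adjusted p under 0.05, Lif rose and Bnip3 fell under all 17 alternatives of scaling, weights, variance, filters and arrays left out. Lif did not pass the stricter threshold of 0.0005. Without ShBNIP3 array 10 the difference of Il11 was -0.068, and over the fits that left out 1 array it ranged from -0.068 to 2.42. Il1rn, at background, was -0.019 with quantile normalization, -0.033 with array weights, -0.12 without both outlying arrays and -0.28 to 0.18 with 1 array left out. The 2 members that rose became 4 with array weights, 5 without both arrays, 1 with either filter on dim probesets (above background, or brighter by mean), 1 with at least 2-fold, 0 at an adjusted p of 0.0005, and 1 to 4 with 1 array left out. The 1 that fell became 0 with at least 2-fold, 0 at 0.0005 and 0 to 1 with 1 array left out. Over all probesets, 333 rose and 636 fell with at least 2-fold, and 167 rose and 343 fell at 0.0005. In the wider lists, 39 rose and 15 fell with array weights, 41 rose and 15 fell without both arrays, 14 rose and 3 fell with at least 2-fold, 1 rose and 2 fell at 0.0005, and 13 to 36 rose and 5 to 11 fell with 1 array left out. With 1 array left out, the within-array difference of Il6 minus Lif ranged from -1.39 to -0.13 (exact permutation p = 0.0317, unadjusted, without ShBNIP3 array 10). That of Il6 minus Il11 ranged from 0.81 to 1.49. Without ShBNIP3 array 10, Il11 was at background on every array but ShCtrl array 4, so no p is given for that fit. That of Osmr minus Il6st ranged from -0.73 to -0.43. Without both arrays, Il6 minus Il11 differed by 1.66, but Il11 was then at background on all 8 arrays, so no p is given. Osmr minus Il6st then differed by -0.53 (exact permutation p = 0.0571, unadjusted). The cause of these shifts was not tested. No paired analysis was possible because the title numbers run from 1 to 10 and no number is shared by both groups. Levels under the background limit bound a gene's expression and do not measure it.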
